A study of Homo sapiens with 30 samples.

Results

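The 9 genes of matrix breakdown described here were followed through RNA sequencing of 5637 cells, an established human bladder carcinoma line. They are MMP1, MMP2, MMP7, MMP9, MMP10, MMP13, MMP14, PLAU and PLAUR. These 9 genes were taken by name from the 60612 rows of the knockout table and the 56303 rows of each of the overexpression and knockdown tables, and all 9 had a row in every table. The study asked what the RNA-binding protein RBPMS and its splicing target ANKRD10 do in bladder cancer cells. The 30 libraries fall into 10 groups of 3. In the knockout table KO1 and KO2 are RBPMS knockouts made with separate guide RNAs, and WT1 and WT2 are controls (WT1 here is a control group, not the gene of that name). The sample titles do not state which controls belong to which knockout. WT1 was taken as the control of KO1 and WT2 as that of KO2 by their shared number. In the overexpression table Vector is the control and ANKRD10-1 and ANKRD10-2 are groups given the longer or the shorter ANKRD10 transcript. In the knockdown table siNC is the control siRNA and siANKRD10-1 and siANKRD10-2 are siRNAs against each transcript. The study's text speaks of knockout lines expanded from single clones, and it places ANKRD10-1 overexpression and ANKRD10-2 knockdown in RBPMS knockout cells, whereas the labels give only 5637 cells for every library. No source says that Vector or siNC was made separately for each cell background. Where groups compared differ in background, as the study's text has it, background and transcript or siRNA cannot be told apart. Nothing in the labels says that the 3 libraries of a group came from separate cultures, so the p-values measure the spread between these libraries.

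Matrix metalloproteinases are zinc enzymes, most of them secreted as inactive precursors, that cut collagen and other proteins of the extracellular matrix. MMP1 and MMP13 are collagenases, MMP10 is a stromelysin, MMP7 is matrilysin, MMP2 and MMP9 are gelatinases, and MMP14 is a membrane-anchored enzyme that activates the MMP2 precursor. PLAU encodes urokinase, which turns plasminogen into plasmin when bound to its receptor PLAUR, and plasmin can in turn activate several metalloproteinase precursors. Tissue inhibitors (TIMP1 to TIMP3) block the metalloproteinases and serpins block the plasminogen activators, and in bladder carcinoma the system is studied for its part in invasion.

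A group of 4 members, MMP7, MMP10, MMP1 and MMP13, lie in that order on 1 stretch of chromosome 11 (GRCh38, from 102520508 to 102955734), all on the minus strand. The other members are scattered over chromosomes 10 (PLAU), 14 (MMP14), 16 (MMP2), 19 (PLAUR) and 20 (MMP9). Other genes are annotated across some of them, WTAPP1 across MMP1 and MMP10, C10orf55 across PLAU, MMP2-AS1 across MMP2, SLC12A5-AS1 across MMP9 and RN7SL368P within PLAUR, so that reads from these overlaps are uncertain. RefSeq promoter windows (GRCh38.p14) were at hand for 5 of the 9 genes, MMP7, MMP10, MMP14, PLAU and PLAUR, with separate windows for 2 PLAU starts. In the 250 bases before each start, 3 searches were run on both strands, for the AP-1 letters TGANTCA (N is any base), the TATA box letters TATAAA and the E-box letters CACGTG. No match overlapped another. The AP-1 letters stood in 3 of these 6 windows (MMP7, MMP10 and PLAUR) against 6.57% of 35116 human promoters, the TATA letters in 2 of 6 (MMP7 and MMP10) against 10.7%, and the E-box letters in 0 of 6 against 6.34%. The windows of MMP10 (chr11:102780629-102780878, minus strand) and MMP7 (chr11:102530748-102530997, minus strand) are shown because these neighbouring genes were lower in both knockouts and their windows have the same layout. Capitals mark the AP-1 letters, which begin 67 bases before the start in both genes, and the TATA letters, which begin 31 bases before it in MMP10 and 30 in MMP7.
MMP10: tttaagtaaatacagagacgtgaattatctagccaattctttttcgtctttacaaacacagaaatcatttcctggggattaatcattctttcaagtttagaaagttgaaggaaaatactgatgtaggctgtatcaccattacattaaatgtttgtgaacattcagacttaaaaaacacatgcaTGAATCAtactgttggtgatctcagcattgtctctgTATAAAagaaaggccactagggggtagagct
MMP7: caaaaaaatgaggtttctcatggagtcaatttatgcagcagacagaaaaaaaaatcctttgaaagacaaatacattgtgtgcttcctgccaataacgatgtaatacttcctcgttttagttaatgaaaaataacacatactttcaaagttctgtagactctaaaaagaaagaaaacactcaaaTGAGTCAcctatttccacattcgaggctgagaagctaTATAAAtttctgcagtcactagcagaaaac
A match of letters in a window is a description and does not show that a factor binds there.

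Depth ranged from 44593108 to 69723937 counts a library in the knockout table, from 31736779 to 47493499 in the overexpression table and from 28511029 to 32784584 in the knockdown table. RBPMS fell from a mean of 41.0 CPM (counts per 1000000 counts of the library) in WT1 to 14.65 in KO1 and from 43.8 in WT2 to 19.99 in KO2, so that its transcript was reduced and not absent. ANKRD10 counted over the whole gene rose from 153 CPM in Vector to 237 in ANKRD10-1 and 192 in ANKRD10-2. It fell from 56.1 CPM in siNC to 47.3 in siANKRD10-1 (log2 fold change -0.24) and 48.1 in siANKRD10-2 (-0.25). In the knockouts ANKRD10 went from 198 CPM in WT1 to 84.95 in KO1 (-1.18, adjusted p = 6.55e-08) and from 193.5 in WT2 to 110.8 in KO2 (-0.76, adjusted p = 3.98e-08), and gene counts do not separate the transcripts. Counts of RBPMS lay between 3.57 and 6.14 CPM in all 18 libraries of the overexpression and knockdown tables. None of the 4 contrasts of those tables against control called RBPMS. All 10 urothelial and epithelial markers were detected. Of the 8 leukocyte markers 6 or 7 were under 1 CPM in every group. Tables were made separately, so levels are compared only within a table.

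Per exon length, as RPKM (CPM divided by the exon length in kb), MMP1 was the most abundant member in WT1 (97.3 to 105.2 RPKM over 3 libraries) and MMP9 the least. MMP14 followed MMP1 in WT1 with 75.8 to 81.8 RPKM, then MMP10 with 68.2 to 73.2, PLAU with 32.9 to 37.8, MMP13 with 23.8 to 28.96, MMP2 with 23.2 to 28.2, PLAUR with 6.42 to 6.999 and MMP7 with 1.31 to 2.10. Only MMP13 and MMP2 had overlapping ranges among neighbours in that order. MMP1 also led in WT2, where MMP10 and MMP14 overlapped. In the controls of the other tables MMP14 led, with a mean of 149 RPKM in Vector and 127.5 in siNC. The places of MMP1, MMP10 and PLAU there are uncertain. As described below, their reads cannot be told apart from those of WTAPP1 or C10orf55 in those tables. PLAU and PLAUR overlapped in Vector, and MMP1 and PLAUR as well as MMP13 and MMP10 overlapped in siNC.

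The first question was which of these enzymes change when RBPMS is lost. MMP10, MMP13 and MMP7 fell in both knockouts, and PLAU, PLAUR and MMP14 rose in both. MMP1 fell and MMP2 rose in KO2, and neither was called in KO1. In KO1, 3 of the 8 members tested rose, against 17.9% of all 17865 genes tested, and 3 fell, against 18.2%. In KO2, 4 rose, against 19.3% of 18267 genes, and 4 fell, against 19.2%. The median log2 fold change over the 8 members was 0.04 in KO1 and -0.19 in KO2, beside medians of 0.00 and -0.02 over all genes tested. A call means a Benjamini-Hochberg adjusted p under 0.05 in the quasi-likelihood test of edgeR, adjusted over all genes tested. In cultures measured in bulk, fewer cells that express a gene and less RNA per cell cannot be told apart.

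MMP10, which degrades proteoglycans and can activate other metalloproteinases, was the member with the largest fall in KO2. Its 3 libraries stood at 120.0, 123 and 129 CPM in WT1 and at 28.9, 29.4 and 24.0 CPM in KO1. In the second pair it stood at 155, 160.1 and 144 CPM in WT2 and at 20.8, 25.8 and 21.0 CPM in KO2. Every knockout library lay below every control library. MMP10 was 4.38-fold lower in KO1 (log2 fold change -2.13, SE 0.08, adjusted p = 1.69e-08) and 6.59-fold lower in KO2 (log2 fold change -2.72, SE 0.08, adjusted p = 1.5e-10).

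MMP13, the collagenase best known from cartilage and bone, fell in both knockouts but further in KO1. WT1 held 67.5, 73.7 and 82.1 CPM and KO1 16.1, 15.2 and 15.6 CPM. WT2 held 80.25, 83.7 and 93.2 CPM and KO2 41.85, 38.7 and 42.45 CPM, so no library of either knockout reached its controls. The log2 fold changes of MMP13 were -2.21 in KO1 (SE 0.08, adjusted p = 1.88e-08) and -1.02 in KO2 (SE 0.06, adjusted p = 1.38e-07).

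MMP7, an enzyme made by epithelial cells, was scarce throughout. It stood at 4.87, 3.39 and 3.04 CPM in WT1 and 1.26, 0.628 and 1.49 CPM in KO1, and at 2.43, 1.89 and 2.81 CPM in WT2 and 1.17, 1.06 and 1.11 CPM in KO2. The groups did not overlap, and the fall of MMP7 was 3.21-fold in KO1 (95% interval of the log2 fold change -2.38 to -0.98, adjusted p = 0.0017) and 2.07-fold in KO2 (-1.58 to -0.52, adjusted p = 0.00457).

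MMP1, the interstitial collagenase, separated the knockouts. Levels were 192, 207 and 203 CPM in WT1 and 209, 213 and 202 CPM in KO1, and these groups overlapped. In the second pair they were 195.5, 214 and 209.8 CPM in WT2 and 58.6, 63.0 and 61.3 CPM in KO2, without overlap. The log2 fold change of MMP1 was 0.10 in KO1 (95% interval -0.01 to 0.21, adjusted p = 0.157) and -1.72 in KO2 (SE 0.05, adjusted p = 1.27e-10), a 3.29-fold fall.

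Urokinase, PLAU, rose in both knockouts. It went from 111, 97.2 and 101.2 CPM in WT1 to 199.5, 190.5 and 198 CPM in KO1, and from 97.35, 100.5 and 97.4 CPM in WT2 to 261, 265 and 266 CPM in KO2. All 6 knockout libraries exceeded all 6 controls. The rise of PLAU was 1.96-fold in KO1 (log2 fold change 0.97, SE 0.05, adjusted p = 4.09e-07) and 2.76-fold in KO2 (1.46, SE 0.03, adjusted p = 4.06e-11). C10orf55, annotated on the opposite strand across PLAU, had log2 fold changes of 0.76 in KO1 and 1.20 in KO2. Only that in KO2 was called (adjusted p = 0.00418). In KO1 the adjusted p was 0.0905 and the groups overlapped, at means of 1.23 CPM in WT1 and 2.02 CPM in KO1.

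Its receptor PLAUR rose little in KO1 and much more in KO2. WT1 held 28.6, 31.2 and 29.9 CPM and KO1 39.7, 34.2 and 37.2 CPM. WT2 held 20.6, 24.2 and 23.4 CPM and KO2 67.2, 67.8 and 69.4 CPM. The groups of each pair did not overlap, and the log2 fold changes of PLAUR were 0.35 in KO1 (SE 0.07, adjusted p = 0.00285) and 1.63 in KO2 (SE 0.06, adjusted p = 2.13e-09). The 98 tested genes within 2 Mb of PLAUR stood at -0.61 on the log2 scale at the median in KO1 (quartiles -0.89 and -0.39), and those tested in KO2 at -0.06 (quartiles -0.48 and 0.18). These ranges overlap, and neither the difference between the knockouts nor the part of the neighbourhood in the value of PLAUR was tested.

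MMP14 and MMP2, an activating enzyme and its substrate, stood as follows. MMP14 measured 365, 349 and 338 CPM in WT1 against 395, 406 and 385 CPM in KO1, and 363, 376 and 360.2 CPM in WT2 against 559, 548 and 549.9 CPM in KO2. No knockout library overlapped its controls for MMP14, whose log2 fold change was 0.22 in KO1 (SE 0.04, adjusted p = 0.00271) and 0.63 in KO2 (SE 0.03, adjusted p = 1.28e-08). MMP2 measured 139, 119.7 and 114.5 CPM in WT1 against 125, 111 and 121 CPM in KO1, which overlapped. MMP2 measured 110.0, 116 and 109.7 CPM in WT2 against 197, 198 and 203 CPM in KO2, which did not overlap. The log2 fold change of MMP2 was -0.02 in KO1 (95% interval -0.18 to 0.13, adjusted p = 0.844) and 0.88 in KO2 (SE 0.04, adjusted p = 7.24e-09).

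MMP9 was at the floor of detection. It had 0 counts in 18 of the 30 libraries, where 3 counts would have given 0.043 to 0.104 CPM, and 2 to 11 counts in the others, with at most 0.187 CPM. It passed the filter on low counts in no comparison and was not tested.

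**Figure D1:**
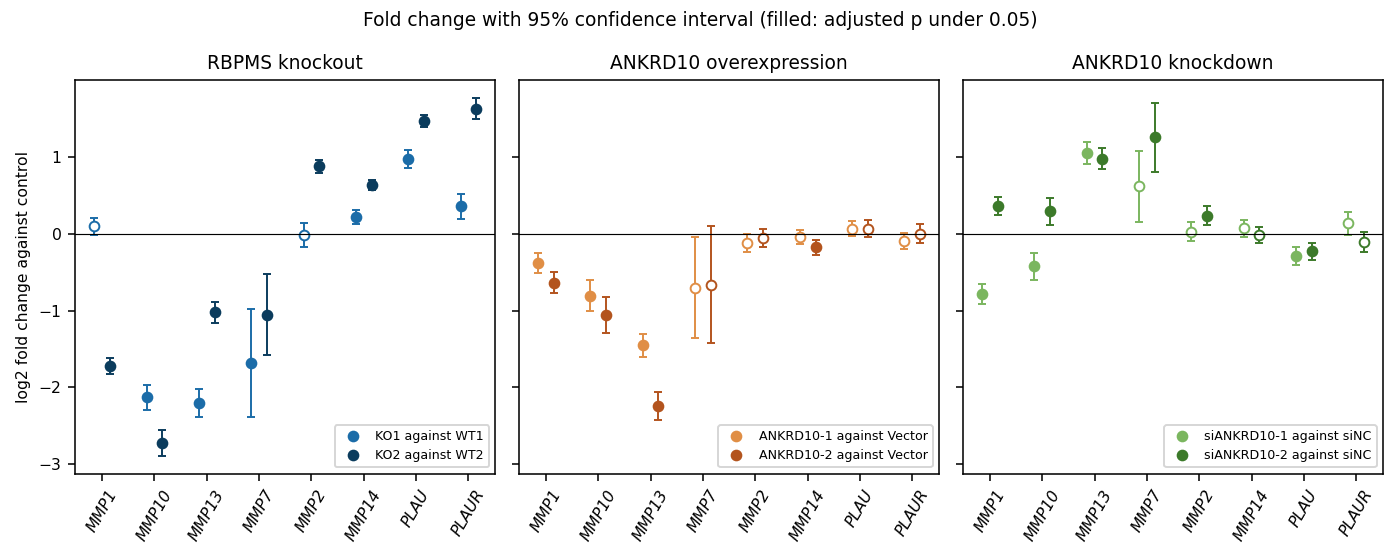
Log2 fold change of the 8 tested members against their own control (vertical axis), with 95% confidence intervals, for knockout, overexpression and knockdown in 3 panels. Filled points have an adjusted p under 0.05, and MMP13 is filled in all 6 contrasts, below 0 in the knockouts and overexpression groups and above 0 in both knockdown groups.

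The difference between the knockouts was tested directly as the change in KO1 minus the change in KO2. It was called for 7 of the 8 members tested, against 23.3% of 19189 genes. The change of MMP1 differed by 1.81 on the log2 scale (SE 0.07, adjusted p = 3.39e-11), with 95% bounds of 1.67 and 1.96. For PLAUR the difference was -1.28 (SE 0.10, adjusted p = 1.05e-07), for MMP13 -1.19 (SE 0.11, adjusted p = 7.93e-07) and for MMP2 -0.90 (SE 0.08, adjusted p = 1.06e-06). Smaller differences were found for MMP10 (0.59), PLAU (-0.50) and MMP14 (-0.42). Only MMP7 was not called, with an interval from -1.50 to 0.23, wide enough to hold both no difference and one as large as that of MMP13. WT2 and WT1, both controls, differed in 2 of the 8 members, against 1.23% of 18335 genes. There MMP10 was higher by 0.31 (SE 0.05, adjusted p = 0.0127) and PLAUR lower by 0.40 (log2 fold change -0.40, SE 0.07, adjusted p = 0.0229) in WT2. Leaving out any 1 library ended at least 1 of these 2 calls. The summed level of the fibroblast markers, which carcinoma cells mostly lack, was 34.0 to 40.5 CPM in KO1. It was 67.8 to 71.1 CPM in WT1 and 74.7 to 76.2 CPM in KO2. Of the 5 fibroblast markers tested in KO1, 4 were lower, against 18.2% of all genes, and 1 was higher, against 17.9%. Of these 8 markers 5 or 6 were under 1 CPM in each of these groups and 3 were at 0 in all KO1 libraries, and their part in the results was not tested. Of the 10 epithelial markers, 4 were higher and 2 lower in KO1, against 17.9% and 18.2% of all genes. In KO2, 4 were higher and 3 lower, against 19.3% and 19.2%. Among those lower was GATA3, by -1.35 in KO1 (adjusted p = 3.47e-07) and -0.76 in KO2 (adjusted p = 1.81e-07). The part of the epithelial markers was not tested either.

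**Figure D2:**
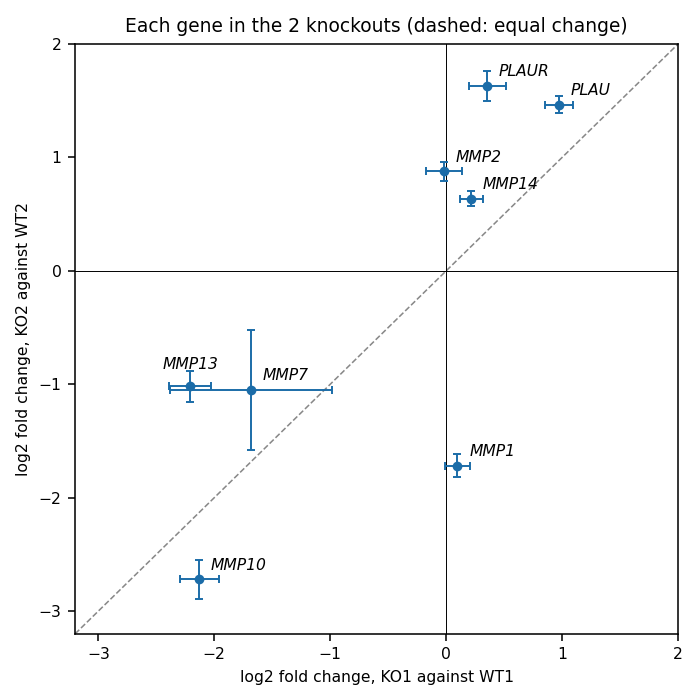
Log2 fold change of the 8 tested members in KO1 against WT1 (horizontal) and KO2 against WT2 (vertical), with 95% confidence intervals and a dashed line of equal change. MMP1 lies at 0.10 in KO1 and -1.72 in KO2, far from the dashed line, and PLAUR lies above it.

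The second question was what raising either ANKRD10 transcript does to these genes. MMP13, MMP10 and MMP1 fell with both transcripts, MMP14 fell slightly with ANKRD10-2, and no member rose. Both contrasts share the 3 Vector libraries. With ANKRD10-1, 3 of 8 members tested fell, against 2.81% of 20457 genes, and 0 rose, against 3.5%. With ANKRD10-2, 4 of 8 fell, against 9.25% of 20177 genes, and 0 rose, against 10.7%. Over the 8 members the median log2 fold change was -0.25 with ANKRD10-1 and -0.41 with ANKRD10-2, beside 0.00 and -0.01 over all genes tested. Of the 10 epithelial markers, 4 were higher with ANKRD10-1 and 7 with ANKRD10-2 and 0 lower. The summed leukocyte markers went from between 24.6 and 26.6 CPM in Vector to between 18.0 and 20.04 CPM. Most of that sum was CD68, at a mean of 23.2 CPM in Vector, 16.6 in ANKRD10-1 and 17.4 in ANKRD10-2. Of the 3 leukocyte markers tested, 1 was lower and 0 higher with each transcript, and 6 of the 8 listed were under 1 CPM. The part of these markers in the results was not tested.

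MMP13 moved most. It measured 25.8, 24.2 and 24.3 CPM in Vector, 8.55, 8.61 and 9.15 CPM in ANKRD10-1 and 5.33, 4.73 and 4.78 CPM in ANKRD10-2, with no overlap between any of the groups. The fall of MMP13 was 2.74-fold with ANKRD10-1 (log2 fold change -1.45, SE 0.07, adjusted p = 2.01e-10) and 4.73-fold with ANKRD10-2 (-2.24, SE 0.09, adjusted p = 2.88e-10). MMP13 was also lower in ANKRD10-2 than in ANKRD10-1, the change being -0.79 on the log2 scale (SE 0.11, adjusted p = 7.3e-05).

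MMP10 measured 9.77, 10.4 and 11.6 CPM in Vector, 5.83, 5.94 and 5.88 CPM in ANKRD10-1 and 4.28, 5.14 and 5.09 CPM in ANKRD10-2. Both overexpression groups lay below Vector. The log2 fold change of MMP10 was -0.80 with ANKRD10-1 (SE 0.10, adjusted p = 3.07e-05) and -1.05 with ANKRD10-2 (SE 0.11, adjusted p = 1.77e-05).

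MMP1 measured 39.4, 40.8 and 42.5 CPM in Vector, 32.1, 29.7 and 29.4 CPM in ANKRD10-1 and 25.4, 24.0 and 25.3 CPM in ANKRD10-2, again without overlap. The log2 fold change of MMP1 was -0.38 with ANKRD10-1 (SE 0.06, adjusted p = 0.000706) and -0.64 with ANKRD10-2 (SE 0.06, adjusted p = 8.57e-06). The pseudogene WTAPP1, annotated on the opposite strand across MMP1 and MMP10, followed with -0.43 and -0.69. WTAPP1 stood at 28.4 CPM in Vector and at 71.4 CPM in siNC, yet at 0.728 CPM in WT1, and the strand setting of the counting is not given in the sources used here. Reads of WTAPP1 and of MMP1 or MMP10 therefore cannot be told apart in the overexpression and knockdown tables. The same holds for PLAU and C10orf55, which stood at 1.23 CPM in WT1 but at 31.9 in Vector and 25.9 in siNC.

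Among the other members, MMP14 measured 663, 662 and 668 CPM in Vector and 572, 534 and 562 CPM in ANKRD10-2, its change being -0.18 on the log2 scale (SE 0.04, adjusted p = 0.0123), which was not called without ANKRD10-2 replicate 2 (adjusted p = 0.0615). In ANKRD10-1, MMP14 measured 607, 601 and 666 CPM (adjusted p = 0.635). PLAU had log2 fold changes of 0.06 (95% interval -0.03 to 0.16) with ANKRD10-1 and 0.07 (-0.05 to 0.18) with ANKRD10-2, and those of PLAUR were -0.09 (-0.20 to 0.01) and 0.00 (-0.13 to 0.12). The upper bounds lay below the changes of PLAU and PLAUR in KO2. MMP2 had -0.12 and -0.05, and MMP7, at 0.478 to 1.38 CPM, had -0.70 and -0.66 with intervals too wide for a call. Between the overexpression groups, 2 of 8 members were called, MMP13 and MMP1, against 7.26% of 20052 genes, and MMP1 (-0.25, adjusted p = 0.0231) was not called when any 1 of ANKRD10-1 replicates 1 and 2 or ANKRD10-2 replicates 2 and 3 was left out (adjusted p from 0.0555 to 0.152).

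The third question was what lowering ANKRD10 does. MMP13 rose and PLAU fell with both siRNAs, while MMP1 and MMP10 fell with siANKRD10-1 and rose with siANKRD10-2. Both contrasts share the 3 siNC libraries. With siANKRD10-1, 1 of 8 members tested rose, against 5.08% of 18785 genes, and 3 fell, against 5.52%. With siANKRD10-2, 5 of 8 rose, against 17.6% of 18924 genes, and 1 fell, against 18.7%. The members' median log2 fold change was 0.05 with siANKRD10-1 and 0.26 with siANKRD10-2, beside 0.00 over all genes in both. Of the 10 epithelial markers, 4 were lower with siANKRD10-1 and 7 with siANKRD10-2. The summed fibroblast markers stood at 43.4 to 45.0 CPM in siNC, 49.8 to 51.9 in siANKRD10-1 and 57.9 to 62.6 in siANKRD10-2. Of these 8 markers 6 were under 1 CPM in each of the 3 groups. With siANKRD10-1, 0 of 6 fibroblast markers tested were called. With siANKRD10-2, 2 of 5 were higher, THY1 (14.7 to 25.5 CPM) and COL1A1 (27.4 to 32.6 CPM), and 0 lower. The part of these markers in the results was not tested.

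MMP13 measured 32.4, 28.8 and 33.4 CPM in siNC, 66.3, 62.6 and 66.9 CPM in siANKRD10-1 and 62.8, 62.3 and 65.1 CPM in siANKRD10-2. Both siRNA groups lay above siNC and overlapped each other. The rise of MMP13 was 2.07-fold with siANKRD10-1 (log2 fold change 1.05, SE 0.07, adjusted p = 2.09e-08) and 1.97-fold with siANKRD10-2 (0.98, SE 0.06, adjusted p = 8.26e-12).

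MMP1 measured 89.1, 96.4 and 99.1 CPM in siNC, 55.3, 56.0 and 54.1 CPM in siANKRD10-1 and 122, 128 and 124 CPM in siANKRD10-2, so that siNC lay between the siRNA groups. The log2 fold change of MMP1 was -0.78 with siANKRD10-1 (SE 0.06, adjusted p = 1.81e-07) and 0.36 with siANKRD10-2 (SE 0.06, adjusted p = 2.06e-05). WTAPP1 moved with it, by -0.84 and 0.29.

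MMP10 took the same order as MMP1 at a lower level. It measured 18.0, 19.4 and 20.7 CPM in siNC, 14.2, 14.6 and 14.6 CPM in siANKRD10-1 and 21.95, 26.6 and 24.0 CPM in siANKRD10-2. Its log2 fold changes were -0.42 (SE 0.08, adjusted p = 0.00294) and 0.29 (SE 0.08, adjusted p = 0.00785). The rise of MMP10 with siANKRD10-2 was not called without siANKRD10-2 replicate 2 (adjusted p = 0.082) or without siNC replicate 1 (adjusted p = 0.0522).

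MMP7 measured 1.30, 1.58 and 1.95 CPM in siNC, 2.01, 2.88 and 2.53 CPM in siANKRD10-1 and 2.92, 3.65 and 5.13 CPM in siANKRD10-2. Neither siRNA group overlapped siNC, but only the 2.38-fold rise with siANKRD10-2 was called (log2 fold change 1.25, SE 0.22, adjusted p = 5.28e-05), that with siANKRD10-1 having an adjusted p of 0.083 (0.0389 without siNC replicate 3).

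PLAU measured 107, 108 and 108.0 CPM in siNC, 89.0, 89.0 and 86.2 CPM in siANKRD10-1 and 94.1, 88.2 and 98.6 CPM in siANKRD10-2. Every siRNA library lay below siNC, the log2 changes being -0.29 (SE 0.05, adjusted p = 0.00182) and -0.23 (SE 0.06, adjusted p = 0.00169). C10orf55, whose reads cannot be told apart from those of PLAU here, had -0.30 (adjusted p = 0.009) and -0.16 (adjusted p = 0.0955, not called). PLAUR was not called, with 0.13 (95% interval -0.01 to 0.28) and -0.10 (-0.23 to 0.02), but was called without siANKRD10-1 replicate 2 (0.21, adjusted p = 0.0209) or without siANKRD10-2 replicate 2 (-0.19, adjusted p = 0.0311). MMP2 rose only with siANKRD10-2 among these contrasts, from 70.5, 72.1 and 64.2 CPM in siNC to 78.2, 83.7 and 86.4 CPM (log2 fold change 0.24, SE 0.06, adjusted p = 0.00198). MMP14 had values of 0.07 and -0.02 on the log2 scale.

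Set against each other, siANKRD10-2 and siANKRD10-1 differed in 5 of 8 members, against 37% of 18832 genes. By the study's text these groups also differ in cell background, and siRNA and background cannot be told apart. MMP1 was higher with siANKRD10-2 by 1.15 on the log2 scale (SE 0.05, adjusted p = 6.15e-13) and MMP10 by 0.72 (SE 0.08, adjusted p = 4.35e-07). MMP7 (0.64) and MMP2 (0.21) were higher and PLAUR (-0.23) lower. Without siANKRD10-1 replicate 1 or siANKRD10-2 replicate 3 MMP7 and PLAUR were not called, nor was PLAUR without siANKRD10-2 replicate 1. MMP13 had a difference of -0.07, with a 95% interval from -0.19 to 0.05.

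Around the chromosome 11 members, other metalloproteinase genes were read from the knockout table. MMP12, macrophage elastase, lies between MMP1 and MMP13 and fell from a mean of 11.8 CPM in WT1 to 3.24 in KO1 (log2 fold change -1.82, SE 0.17, adjusted p = 1.4e-05) and from 17.6 in WT2 to 0.554 in KO2 (-4.96, SE 0.22, adjusted p = 8.56e-09). MMP3, a stromelysin like MMP10, was at most 0.852 CPM in any group mean of the 3 tables. Leaving out metalloproteinase genes and WTAPP1, the 13 tested genes within 2 Mb of MMP10 stood at the median at -0.19 on the log2 scale in KO1 and at -0.28 in KO2. With those genes kept and MMP10 alone left out, the medians over 18 genes were -0.31 in KO1 and -0.44 in KO2, beside -2.13 and -2.72 for MMP10 itself. With the transcripts, the median without metalloproteinase genes and WTAPP1 was -0.09 over 10 genes (ANKRD10-1) and 0.00 over 9 (ANKRD10-2), and with them -0.12 over 14 and -0.18 over 13. With the siRNAs it was -0.06 and -0.20 over 9 genes without them, and -0.03 and -0.09 over 14 with them.

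**Figure D3:**
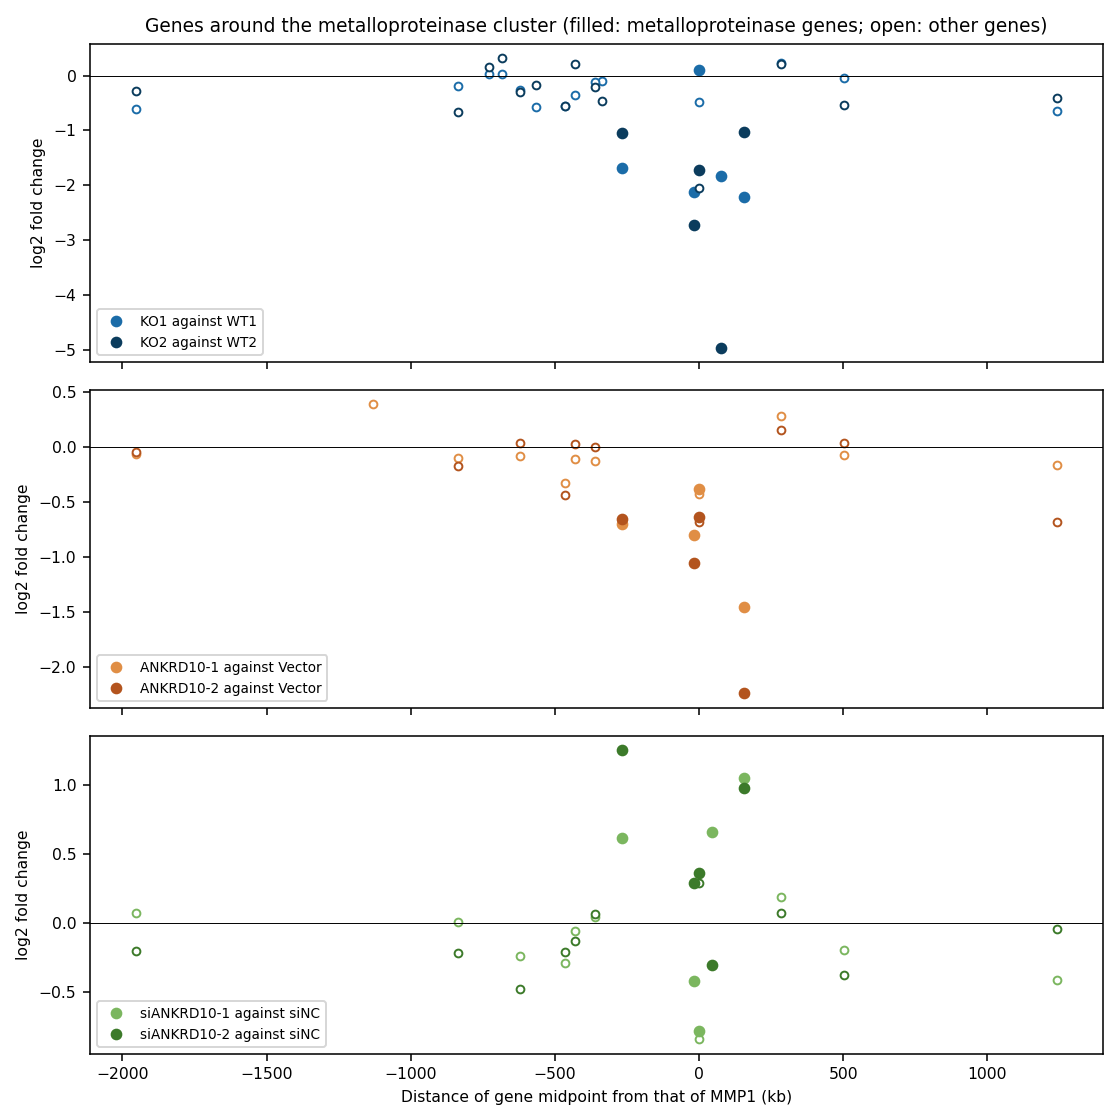
Log2 fold change (vertical) of tested genes within 2 Mb of MMP1 against the distance of the gene's midpoint from that of MMP1 in kb (horizontal), for knockout, overexpression and knockdown. Filled points are metalloproteinase genes and open points other genes. MMP12 in KO2 is the lowest point, at -4.96, and YAP1, 622 kb from MMP1, stands at -0.27 in KO1 and -0.30 in KO2.

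Of the inhibitors of metalloproteinases (6 genes, 5 tested), TIMP3, which binds to the matrix, rose in both knockouts, by 0.55 on the log2 scale in KO1 (SE 0.06, adjusted p = 4.87e-05) and 0.96 in KO2 (SE 0.04, adjusted p = 2.16e-09). Of the 5 tested, 1 was higher and 0 lower in KO1, against 17.9% and 18.2% of all genes, so that the share higher was near that of all genes. In KO2, 2 were higher and 2 lower, against 19.3% and 19.2%, and TIMP2 rose by 0.32 and TIMP1 fell by 0.38. None of the 5 was called with either ANKRD10 transcript, against 6.31% of all genes with ANKRD10-1 and 19.9% with ANKRD10-2. TIMP2, which also helps MMP14 to activate MMP2, fell with both siRNAs, from a mean of 144.5 CPM in siNC to 106 in siANKRD10-1 (log2 fold change -0.44, adjusted p = 9.74e-05) and 118 in siANKRD10-2 (-0.32, adjusted p = 3.85e-05).

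Tissue plasminogen activator, PLAT, was lower in the knockouts, where urokinase was higher. It fell from a mean of 129 CPM in WT1 to 79.7 in KO1 (log2 fold change -0.65, SE 0.05, adjusted p = 2.39e-06) and from 151 in WT2 to 68.4 in KO2 (-1.10, SE 0.05, adjusted p = 6.62e-09). PLAT also fell with ANKRD10-1 (-0.41, adjusted p = 5.77e-05) and ANKRD10-2 (-0.90, adjusted p = 9.77e-08), where PLAU was not called. Of the 11 other genes of the plasminogen system, 7 were tested in the knockouts, with 2 higher and 2 lower in KO1 (17.9% and 18.2% of all genes) and 4 higher and 3 lower in KO2 (19.3% and 19.2% of all genes).

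Of the inhibitors of plasmin and the plasminogen activators, 3 of 5 tested rose in KO1, against 17.9% of all genes, and 4 of 6 in KO2, against 19.3%. The other 2 in each knockout were not called and none was lower. Their median log2 fold changes were 0.50 and 0.99 against 0.00 and -0.02 over all genes. SERPINB2, plasminogen activator inhibitor of the ovalbumin family, rose by 0.82 in KO1 (SE 0.10, adjusted p = 7.24e-05) and 1.72 in KO2 (SE 0.11, adjusted p = 1.91e-07). SERPINE2, a serpin that also blocks thrombin, rose by 0.50 (adjusted p = 9.93e-06) and 0.77 (adjusted p = 1.38e-08). TFPI2, a Kunitz inhibitor of plasmin, rose by 0.92 and 1.21. SERPINB2 also rose with ANKRD10-2, by 0.42 (SE 0.06, adjusted p = 0.000272), and was not called with ANKRD10-1. With the siRNAs SERPINB2 fell, by a log2 fold change of -0.53 with siANKRD10-1 (adjusted p = 9.27e-05) and -0.86 with siANKRD10-2 (adjusted p = 2.34e-10). SERPINE2 rose with siANKRD10-2, by 0.36 (SE 0.06, adjusted p = 1.64e-05).

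Further matrix proteases were read as lists. Among 16 further metalloproteinases, 0 of 9 tested rose and 4 fell in KO1, against 17.9% and 18.2% of all genes, and 4 rose and 1 fell in KO2, against 19.3% and 19.2%. None of the 8 tested was called with either ANKRD10 transcript, against 6.31% of all genes with ANKRD10-1 and 19.9% with ANKRD10-2. Cathepsin S, CTSS, rose in both knockouts, by 1.51 in KO1 (adjusted p = 1.13e-07) and 0.81 in KO2 (adjusted p = 1.04e-06), and fell with both transcripts and both siRNAs, between -0.33 and -0.84. Cathepsin D, CTSD, a lysosomal aspartic protease, fell from a mean of 116 CPM in siNC to 49.96 in siANKRD10-2 (log2 fold change -1.24, SE 0.06, adjusted p = 6.4e-15). ADAM19, a membrane metalloprotease, rose from 28.7 to 56.9 CPM there (0.96, SE 0.07, adjusted p = 2.08e-11). Among proprotein convertases, a family that activates MMP14, PCSK5 went from 6.65 CPM in WT1 to 24.0 in KO1 (1.89, adjusted p = 1.4e-07) and from 7.30 in WT2 to 4.98 in KO2 (-0.51, adjusted p = 0.00861). PCSK6 of the same family fell in KO1, from 26.05 to 8.93 CPM (-1.50, adjusted p = 2.14e-06).

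Of 14 AP-1 and ETS transcription factors, all tested, 4 rose and 3 fell in KO1, against 17.9% and 18.2% of all genes, and 9 rose and 3 fell in KO2, against 19.3% and 19.2%. The shares lower were near those of all genes. ETV1, an ETS factor, had the change of greatest size in KO2, from a mean of 5.53 CPM in WT2 to 1.165 (log2 fold change -2.21, SE 0.21, adjusted p = 5.11e-06). FOSL1, a Fos family subunit of AP-1, rose in KO1 from a mean of 11.7 CPM in WT1 (log2 fold change 2.15, SE 0.10, adjusted p = 1.13e-07) and in KO2 from 11.3 CPM in WT2 to 40.2 (1.88, SE 0.14, adjusted p = 6.88e-07). FOSL1 also rose with ANKRD10-1 (0.42, adjusted p = 7.98e-06) and ANKRD10-2 (0.89, adjusted p = 1.68e-08). FOSB, a further Fos family subunit, fell from 44.8 CPM in Vector to 22.8 with ANKRD10-1 (-0.93, adjusted p = 3.85e-08) and 19.0 with ANKRD10-2 (-1.16, adjusted p = 7.18e-08). FOS, the founding subunit, fell from 121 CPM in Vector to 81.7 (-0.52, adjusted p = 5.15e-07) and 75.7 CPM (-0.60, adjusted p = 1.98e-06). With siANKRD10-1, where MMP13 rose, FOSB (-0.54, adjusted p = 0.00133) and FOS (-0.66, adjusted p = 1.47e-05) also fell. The part of these factors in the changes of the members was not tested.

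**Figure D4:**
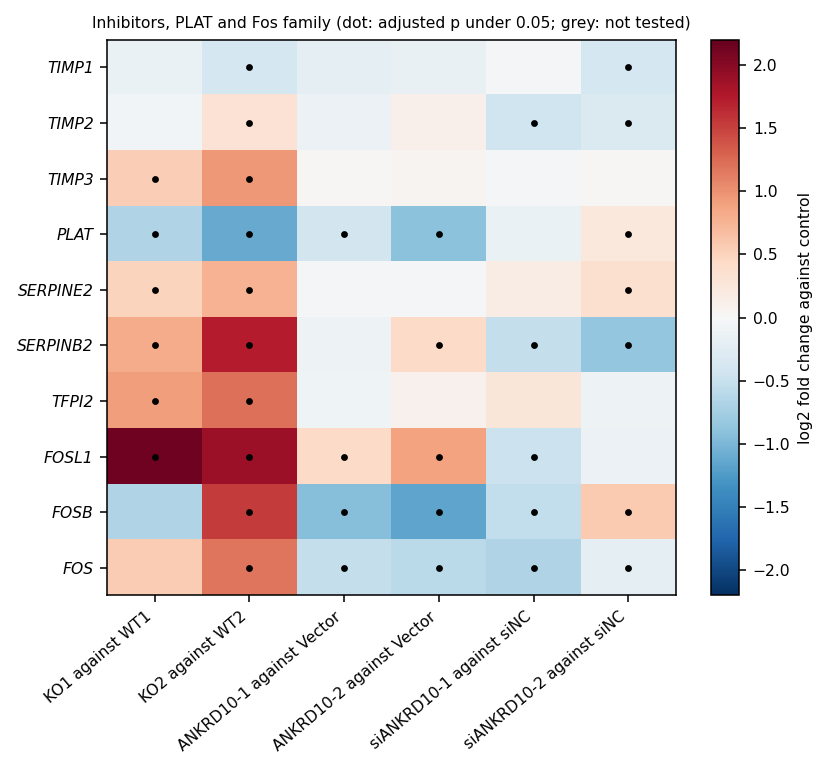
Log2 fold change against control (colour scale from -2.2 to 2.2) of TIMP1 to TIMP3, PLAT, SERPINE2, SERPINB2, TFPI2, FOSL1, FOSB and FOS (rows) in the 6 contrasts against control (columns). Dots mark an adjusted p under 0.05. PLAT is blue in both knockout and both overexpression columns, and FOSL1 is darkest in KO1, at 2.15.

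Over the 6 contrasts against control, 13229 genes tested in all of them were ranked by how near their log2 fold changes came to those of each member, as the root mean square of 6 differences. For MMP10 the nearest was METTL7A, at 0.16, with -2.11 in KO1, -2.76 in KO2, -0.52 and -1.18 with the ANKRD10 transcripts and -0.61 and 0.42 with the siRNAs. HPGD, which breaks down prostaglandins, followed at 0.45. MMP13 had the largest distances, its nearest being LGALS9 at 0.65 and DNAH2 at 0.72. MMP1 was nearest to HEY1 and SOX2, both at 0.27, and MMP7 to TTLL6 at 0.31 and DNAH2 at 0.34. PLAU was nearest to the antisense C10orf55 at 0.14, where shared reads cannot be told apart, and to VEGFA at 0.15, and PLAUR to ABTB2 at 0.12 and GPR132 at 0.13. MMP14 was nearest to WNK4 at 0.06 and KYNU at 0.07, and MMP2 to CPT1B at 0.10 and RELL2 at 0.10.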

How the data were processed

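The 30 libraries were made by the authors with poly(A) selection and a stranded kit, and the submitters' notes name Trimmomatic 0.36, featureCounts of Subread 1.5.1 and build GRCh38, while the study's text names HISAT2 and StringTie. The strand setting of the counting is not given in the sources used here. The deposited values are whole-number counts per gene. Values from 1 to 20 were even in 47% of cases in the knockout table, 67.8% in the overexpression table and 73.4% in the knockdown table. Whether the mates of a read pair were counted separately in those tables is not given in the sources used here, so a count there may not stand for 1 fragment, which bears on depth, the count filter and the SEs. Groups came from the sample titles. Genes passing filterByExpr (minimum count 10, minimum total 15) were tested with edgeR 4.0.16 (TMM factors, quasi-likelihood test, prior count 0.125) on the libraries of each comparison, with Benjamini-Hochberg adjustment at 0.05. CPM was computed from library totals, and RPKM of all 3 tables with the lengths deposited with the overexpression table. Gene positions were those of GENCODE v29. SE is the absolute log2 fold change over the square root of F. The test was checked on simulated counts. With 3 against 3 libraries an exact permutation test cannot go below p = 0.1, so none was used.

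The members and lists were chosen with earlier results of these data known. Genes named are the members, fixed inhibitors, PLAT and MMP3, up to 2 genes of a list with the largest called change and a mean of at least 50 counts, and the 2 genes nearest in pattern to each member, with FOS, FOSB, FOSL1, SERPINE2, TFPI2, PCSK5, WTAPP1, C10orf55 and YAP1 also given in contrasts where the rule did not name them. 1 gene of the list of plasmin and plasminogen activator inhibitors is not reported here and is left out of that list's counts. Alternatives were DESeq2 1.42.0, its size factors, no filter, a replicate block, all libraries of a table in 1 fit, all 6 control libraries, a fold threshold and each replicate left out.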

Additional observations from a re-analysis of the deposited data

Results flagged for a closer look

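A difference between the changes in KO1 and in KO2, each against its own controls, passed the test for 7 of the 8 members tested. On the log2 scale the KO1 change minus the KO2 change was 1.81 for MMP1 (0.10 against -1.72), 0.59 for MMP10 (-2.13 against -2.72) and -1.19 for MMP13 (-2.21 against -1.02). It was -0.90 for MMP2 (-0.02 against 0.88), -0.42 for MMP14 (0.22 against 0.63), -0.50 for PLAU (0.97 against 1.46) and -1.28 for PLAUR (0.35 against 1.63). The direction was shared by both knockouts for MMP10, MMP13, MMP14, PLAU and PLAUR, and the size was not. Each value also holds the difference between the controls, which were paired with the knockouts by their shared number. WT2 against WT1 stood at 0.31 for MMP10 and -0.40 for PLAUR, while MMP10 had means of 27.4 CPM in KO1 and 22.55 CPM in KO2. The part of the controls in these differences was not tested. Since 23.3% of all genes tested passed the same test, such differences were common in this pair of knockouts. Groups of 3 libraries were too small for a search for single libraries that stand apart.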

How the results depend on the processing

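The count of members called moved beyond 1.5 times in 23 of 127 alternatives, and member values changed direction or call in 42 of 936. A fold threshold of 1 (log2) together with the adjusted p left 3 members of 6 in KO1, 1 of 3 with ANKRD10-1, 2 of 4 with ANKRD10-2, 1 with siANKRD10-1, 1 with siANKRD10-2, 0 between the overexpression groups, 1 between the siRNAs, 0 between the controls and 3 in the difference of the knockouts. Between the controls, 1 member was called without the filter and 1 with all libraries in 1 fit. With each replicate left out in turn, the count ranged from 1 to 2 between the overexpression groups, from 3 to 5 between the siRNAs and from 0 to 1 between WT2 and WT1.

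Reversals were seen for values near 0. The log2 fold change of MMP2 in KO1 became 0.0554 with all 6 control libraries, and that of PLAU between the overexpression groups became -0.00626 without the filter. With 1 library left out, MMP2 in KO1 ranged from -0.0718 to 0.0587, PLAU between the overexpression groups from -0.0248 to 0.0347, MMP7 there from -0.315 to 0.233, PLAUR with ANKRD10-2 from -0.0638 to 0.0438, MMP2 with siANKRD10-1 from -0.0117 to 0.0533 and MMP14 with siANKRD10-2 from -0.0381 to 0.0197. Over all genes, WT2 against WT1 gave 226 calls, 690 with DESeq2, 88 without the filter and 71 to 133 with 1 library left out. Leaving out 1 library also lowered the calls over all genes beyond 1.5 times for ANKRD10-1 (1291, down to 700), ANKRD10-2 (4017, down to 2617), siANKRD10-1 (1991, down to 949) and between the overexpression groups (1455, down to 694). The causes were not tested.

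A replicate block called the same number of members in every comparison, 6 in KO1, 8 in KO2, 3 with ANKRD10-1, 4 with ANKRD10-2, 4 with siANKRD10-1, 6 with siANKRD10-2, 2 and 5 between the treated groups, 2 between the controls and 7 in the difference of the knockouts. Over all genes it gave 2778 calls with siANKRD10-1. The labels do not say whether same-numbered libraries were paired, and their deviations from the group means correlated between -0.035 and 0.082. MMP7 and MMP9 had low counts, and MMP9 was not tested.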
